A study of Bos grunniens x Bos taurus and Bos grunniens with 6 samples.

Results

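Sertoli cells are the somatic nurse cells of the seminiferous tubule, and 10 of their identity factors and products were followed here in testis RNA of cattle-yak, the sterile male hybrid, and of yak. The set holds the transcription factors SOX9, WT1, GATA4, GATA6 and SOX8, the secreted proteins CLU, TF, PTGDS and WFDC2, and the small intracellular protein BEX2. Every gene of the deposited expression table that carried 1 of these symbols, whatever its case, was taken as its own row. This gave 12 rows out of 18918 genes, because CLU and BEX2 each stand on 2 gene identifiers. A mean FPKM of at least 0.5, where FPKM is the number of fragments scaled to the length of the transcript and to the depth of the library, was needed for testing, and 11 of the 12 rows had it. The exception was SOX8.

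The 6 libraries came from 6 males of 4 years, 1 library per animal. Libraries TES5, TES6 and TES7 were from cattle-yak, the F1 of a Jersey cattle sire and a Gannan yak dam, and libraries Yak8, Yak9 and Yak10 were from Gannan yak. The groups were kept in different counties, and the yak genome served as the reference for both, so that cross, place of keeping and the distance of hybrid reads from the reference cannot be told apart. According to the labels all testes were obtained by castration, whereas the study's methods give castration for cattle-yak and euthanasia for yak.

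As background, SOX9 carries the decision of the fetal gonad to form Sertoli cells, and WT1 and GATA4 act upstream of it and later keep these cells mature. The adult Sertoli cell supports germ cells behind the blood-testis barrier and supplies them through its secretions. Transferrin brings iron to them, clusterin is an extracellular chaperone that binds cell debris and lipids, and PTGDS makes prostaglandin D2 and carries small lipophilic ligands.

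Depth was alike over the libraries, with 11175100 to 13136129 fragments on genes, and 1 fragment on a transcript of 1 kb was worth 0.0761 to 0.0895 FPKM. For comparison, 12 other genes of Sertoli cells were read, among them the FSH receptor FSHR and the hormone AMH. All 12 passed the filter, and their summed level was 1422 to 1607 FPKM in cattle-yak and 295 to 373 FPKM in yak. INHA was the most abundant of them in both groups. Leydig, myoid and spermatogonial markers were higher in cattle-yak too, so these values do not test the Sertoli label. Post-meiotic germ cell markers went the other way. The summed level of 5 elongating spermatid markers was 13.4 to 68.8 FPKM in cattle-yak and 8133 to 9917 FPKM in yak. These are bulk tissue samples, in which fewer cells of a type and less RNA per cell cannot be told apart, and a level is always a share of the whole library.

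The 4 tested identity factors were all higher in cattle-yak, by 5.05 to 8.20 times in mean FPKM. SOX9 (ENSBGRG00000026479) had 34.9, 35.6 and 32.2 FPKM in TES5, TES6 and TES7, against 7.51, 6.02 and 6.82 FPKM in Yak8, Yak9 and Yak10. The 3 hybrid libraries lay close together, and the lowest of them was far above the highest yak library. The log2 (foldchange) was 2.18 (standard error 0.12, adjusted p = 1.1e-06, limma).

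WT1 (ENSBGRG00000014474), a zinc finger factor of the gonadal and kidney mesoderm, had 50.2, 67.6 and 61.1 FPKM in TES5, TES6 and TES7. In Yak8, Yak9 and Yak10 it had 8.44, 7.96 and 10.3 FPKM. Again the groups did not overlap, with TES5 the lowest of the hybrids, and the log2 (foldchange) was 2.61 (standard error 0.15, adjusted p = 1.2e-06, limma).

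GATA4 (ENSBGRG00000002675), which activates Sertoli and Leydig cell promoters, had 47.2, 62.2 and 57.0 FPKM in TES5, TES6 and TES7, and 9.24, 7.13 and 7.80 FPKM in Yak8, Yak9 and Yak10. TES5 was the lowest hybrid library here too, and all 3 stood above the yak libraries. The log2 (foldchange) was 2.64 (standard error 0.14, adjusted p = 1.0e-06, limma). Its relative GATA6 (ENSBGRG00000015008) was the least abundant of the 4, with 22.9, 26.5 and 25.5 FPKM in TES5, TES6 and TES7 and 3.65, 2.48 and 3.01 FPKM in Yak8, Yak9 and Yak10. The groups did not overlap, and its log2 (foldchange), 2.69 with a standard error of 0.15 (adjusted p = 1.1e-06, limma), was the largest among the 4 tested identity factors.

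SOX8 (ENSBGRG00000007158), a close relative of SOX9 that can act in its place in Sertoli cells, was hardly detected. It had 0.42, 0.41 and 0.30 FPKM in TES5, TES6 and TES7 and 0.088, 0.12 and 0.15 FPKM in Yak8, Yak9 and Yak10. These values stand for 13, 12 and 9 fragments in the hybrids and for 3, 4 and 5 in the yaks. All hybrid libraries were above all yak libraries, with the summed fragments at a rate of 3.21 times the yak rate (95% exact binomial interval 1.62 to 6.81, 34 against 12 fragments, counting error only). An exact two-sided permutation test of the FPKM gave p = 0.1, the smallest that 3 against 3 animals can give.

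**Figure D1:**
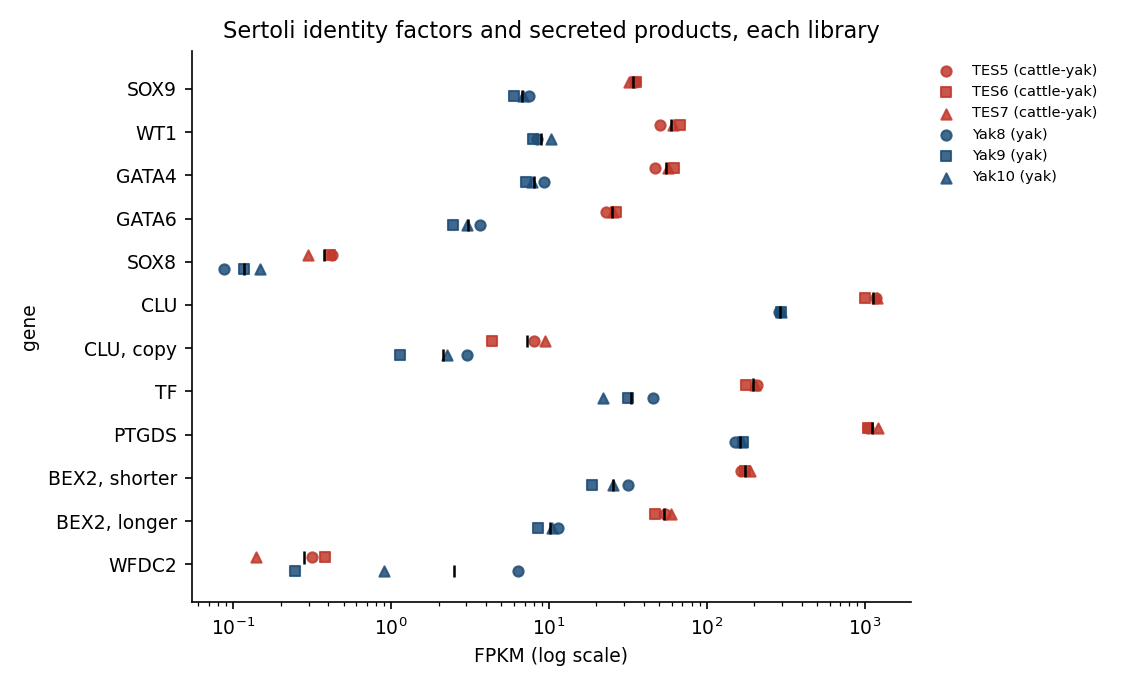
FPKM (log axis) of the 12 gene rows, with 1 point per library, cattle-yak in red above yak in blue, and a black bar at each group's mean. In 11 rows the red points lie to the right of all blue points, and in WFDC2 they overlap, with Yak8 alone at 6.40 FPKM.

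Of the secreted products, CLU, TF and PTGDS were higher in every cattle-yak library, and together with WFDC2 they made up 0.412% ± 0.024 (SD, n = 3) of all FPKM of a hybrid library, against 0.0819% ± 0.0020 (SD, n = 3) of a yak library. For the 5 identity factors the shares were 0.0295% ± 0.0035 and 0.00447% ± 0.00046 (SD, n = 3). Both shares were thus several times larger in the hybrid testis, and their ranges did not overlap.

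PTGDS (ENSBGRG00000008193) had 1057, 1057 and 1221 FPKM in TES5, TES6 and TES7, and 151, 170.2 and 168 FPKM in Yak8, Yak9 and Yak10. It stood at rank 41, 39 and 39 among the genes of the hybrid libraries and at rank 765, 665 and 695 in the yak libraries. Replicates differed little in either group, and the log2 (foldchange) was 2.76 (standard error 0.10, adjusted p = 2.2e-07, limma).

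CLU (ENSBGRG00000001455) was as abundant as PTGDS in the hybrids, with 1186, 1007 and 1191 FPKM in TES5, TES6 and TES7. In Yak8, Yak9 and Yak10 it had 286, 295 and 294 FPKM, a spread of only 1.75% of the mean. The groups were far apart, but the log2 (foldchange) of 1.94 (standard error 0.10, adjusted p = 8.5e-07, limma) was the second smallest of the rows called higher. A shorter gene with the same symbol (ENSBGRG00000001185) had 8.06, 4.38 and 9.45 FPKM in TES5, TES6 and TES7 and 3.0, 1.14 and 2.25 FPKM in Yak8, Yak9 and Yak10. With 1.40 (standard error 0.31, adjusted p = 2.8e-03, limma) it had the smallest log2 (foldchange) of the rows called higher, and its values are uncertain because reads of the abundant CLU may fall on it.

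TF (ENSBGRG00000003633), serum transferrin, had 208, 178 and 203 FPKM in TES5, TES6 and TES7, and 45.5, 31.5 and 22.0 FPKM in Yak8, Yak9 and Yak10. The yak libraries were spread widely, with a coefficient of variation of 35.8% against 8.25% in the hybrids, and Yak8 was the highest of them. The lowest hybrid value still lay above the highest yak value, and the log2 (foldchange) was 2.59 (standard error 0.23, adjusted p = 1.3e-05, limma).

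BEX2, a small X-linked protein expressed in brain and in other tissues, is not secreted, and the study also lists it and WFDC2 as Sertoli markers from these same samples, so their direction is not independent evidence. The gene with the shorter transcript (ENSBGRG00000023075, 387 bases) had 165, 175 and 187 FPKM in TES5, TES6 and TES7 and 31.7, 18.7 and 25.5 FPKM in Yak8, Yak9 and Yak10. The gene with the longer transcript (ENSBGRG00000018278, 1607 bases) had 54.1, 46.8 and 59.6 FPKM in TES5, TES6 and TES7 and 11.5, 8.50 and 10.4 FPKM in Yak8, Yak9 and Yak10. Both were higher in every hybrid library, and each is uncertain to the extent that reads could be split between them. The log2 (foldchange) was 2.78 (standard error 0.17, adjusted p = 2.1e-06, limma) for the shorter gene and 2.29 (standard error 0.14, adjusted p = 2.0e-06, limma) for the longer one. The former was the largest of the set only with 1 added to the FPKM before the log. With 0.1 added, GATA6 was larger, at 3.01 against 2.82 for the shorter BEX2. In mean FPKM GATA6 also rose more, by 8.20 times against 6.95 times. Per length the shorter gene was the more abundant, although the longer one held more fragments, with 1029, 841 and 1110 in TES5, TES6 and TES7 against 755, 758 and 841.

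WFDC2 (ENSBGRG00000016785), a small secreted protein with WAP domains that is typical of duct epithelia such as that of the epididymis, was the exception. It had 0.317, 0.383 and 0.138 FPKM in TES5, TES6 and TES7, and 6.40, 0.245 and 0.907 FPKM in Yak8, Yak9 and Yak10. The groups overlapped, and the yak mean of 2.52 ± 3.38 FPKM (SD, n = 3) rested on Yak8, where 157 fragments were counted against 6 in Yak9 and 22 in Yak10. The log2 (foldchange) of −1.03 (standard error 0.57) was not past the threshold (adjusted p = 0.126, limma). It was −0.27 without Yak8, and it passed the threshold without Yak9, at −1.56 (adjusted p = 0.028, limma). By summed fragments the hybrid rate was 0.110 times the yak rate (95% exact binomial interval 0.064 to 0.179), and 0.485 times without Yak8 (0.253 to 0.908), both for counting error only.

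Markers of rete testis and duct epithelium were read beside WFDC2. Of 11 such genes, 10 were above 0 in some yak library, and 5 of these were highest in Yak8, 4 in Yak9 and 1 in Yak10. KRT8, a keratin of simple epithelia, had 5.88, 1.78 and 2.31 FPKM in Yak8, Yak9 and Yak10, and KRT19 had 3.39, 0.946 and 1.27 FPKM. PAX8, a factor of duct epithelium, had 1.45, 0.828 and 0.677 FPKM. These 3 genes thus had their highest yak value in the library with the most WFDC2. KRT18, the usual partner of KRT8, did not, with 3.66, 6.04 and 3.93 FPKM in Yak8, Yak9 and Yak10. The claudin CLDN4, read on the more abundant of its 2 genes, was at 0 in all 3 yak libraries. The water channel AQP9 was at 0 in Yak8 and Yak10. The summed level of the list was 147 to 192 FPKM in cattle-yak and 143 to 172 FPKM in yak. Most of it was the germ cell and epithelial adhesion molecule EPCAM. Of the 6 tested genes 3 were called higher and 0 lower, where 33.4% and 20.8% of all genes were. After median-of-ratios scaling 2 were called higher and 0 lower, where 2655 and 4173 of all 15042 genes tested were. All 5 Leydig and all 7 myoid markers measured were also highest in Yak8 among the yaks. The part of any of these cells in the WFDC2 value was not tested.

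**Figure D2:**
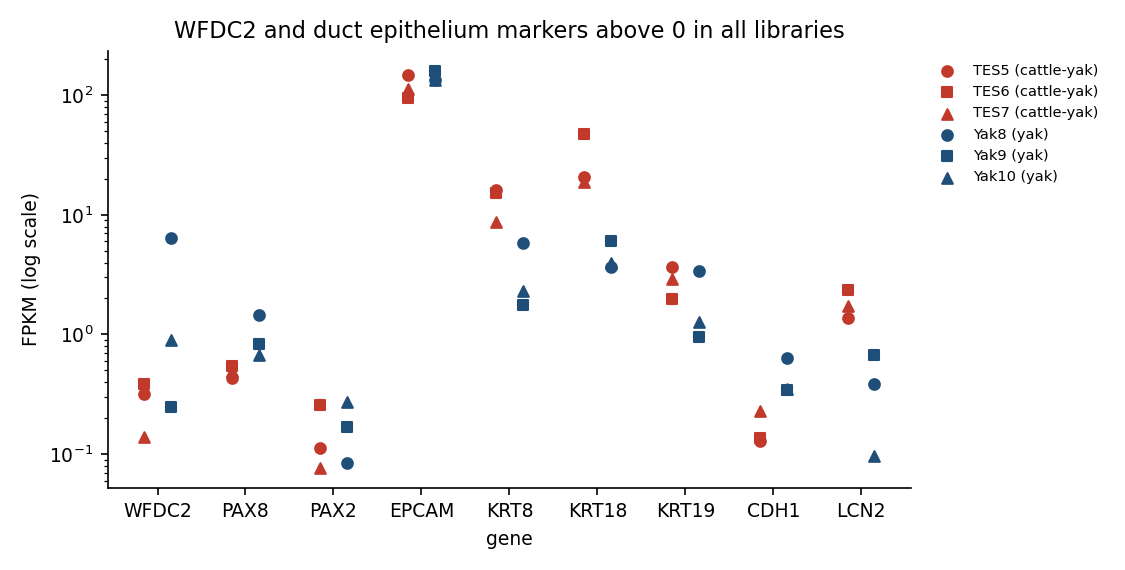
FPKM (log axis) of WFDC2 and of the 8 duct epithelium markers above 0 in all 6 libraries, with 1 point per library, cattle-yak in red and yak in blue. Yak8 (blue circle) is the highest yak library for WFDC2, PAX8, KRT8, KRT19 and CDH1, but not for EPCAM, PAX2, KRT18 and LCN2.

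Levels can be ordered per length within each group. In cattle-yak, PTGDS and CLU came first with overlapping ranges, followed by TF and the shorter BEX2, which also overlapped. WT1, GATA4 and the longer BEX2 overlapped one another, then came SOX9 and GATA6 without overlap, the CLU copy, and last SOX8 and WFDC2. In yak the order differed at the top, where CLU stood alone above PTGDS, and SOX9 overlapped with GATA4 while GATA4 overlapped with WT1. WT1, GATA4 and the longer BEX2 overlapped one another in yak too. The order also differed at the bottom, where WFDC2 overlapped with SOX9, GATA6 and the CLU copy. GATA6 and the CLU copy overlapped each other, and SOX8 alone came last.

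Genes were called when the Benjamini-Hochberg adjusted p over the 15042 genes tested was under 0.05 and the log2 (foldchange) beyond 1 in size. Of the 11 tested rows, 10 were called higher in cattle-yak, where 33.4% of all genes tested were called higher. None was called lower, against 20.8% of all genes, and the count was also 0 at an unadjusted p under 0.05 in limma and with voom in limma on the recovered fragments. The median log2 (foldchange) of the 11 rows was 2.59, and that of all genes tested was 0.51. In 10 of the 11 the cattle-yak libraries lay wholly above the yak libraries, as in 53.9% of all genes tested.

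Other somatic genes and spermatogonial genes were higher as well. Of the 12 other Sertoli genes 11 were called higher, with a median of 1.89. KITLG, the ligand that germ cells need through KIT, had the largest rise of them at 2.87, INHA, the inhibin subunit, was the most abundant at 843 ± 90.0 FPKM against 122 ± 26.8 FPKM (SD, n = 3), and ESPN, an actin bundler of Sertoli junctions, stayed below the threshold at 0.69. All 5 Leydig markers (median 2.05), all 7 myoid markers (median 1.96) and all 6 spermatogonial markers (median 1.91) were also called higher. The 4 round spermatid markers (median −6.04) and the 5 elongating spermatid markers (median −7.89) were all called lower. Endothelial and macrophage genes were divided, with 3 of 6 and 4 of 7 called higher and 1 and 2 called lower. After median-of-ratios scaling the counts called higher were 7 of 12 other Sertoli, 4 of 5 Leydig, 7 of 7 myoid and 5 of 6 spermatogonial genes. No endothelial and 2 macrophage genes were then called higher, and 1 and 2 lower. Of all 15042 genes tested, 2655 were called higher and 4173 lower in this scaling.

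**Figure D3:**
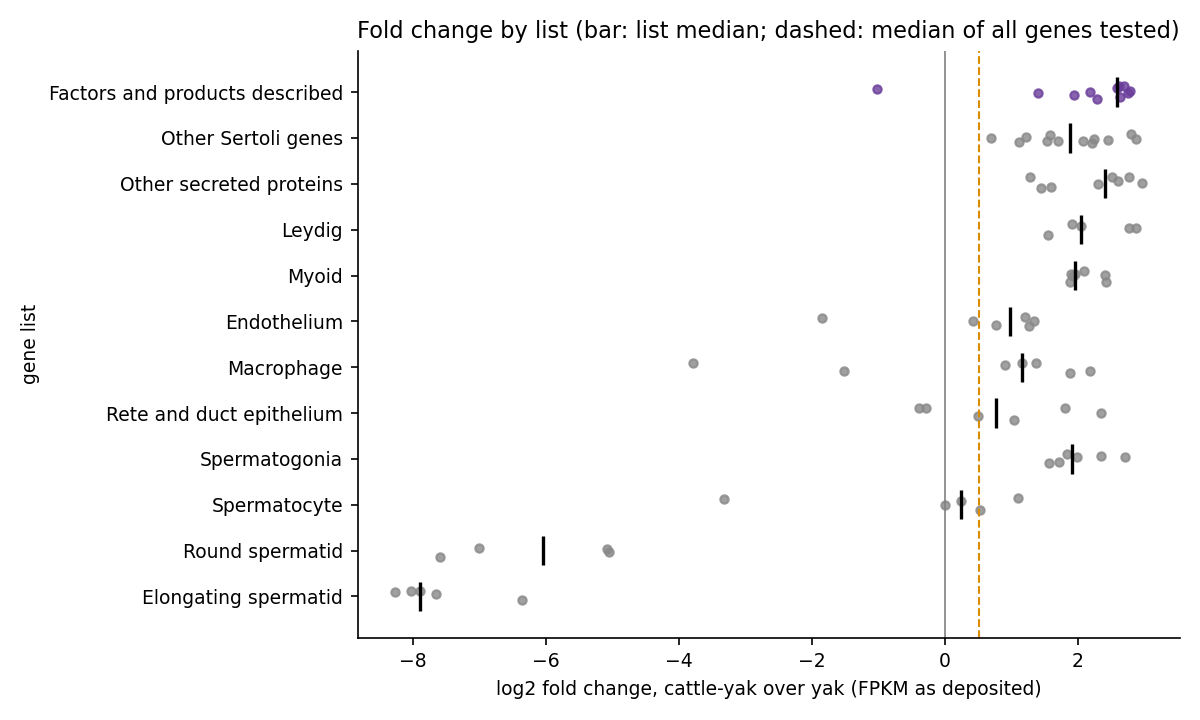
log2 (foldchange) of cattle-yak over yak on FPKM as deposited for the 11 tested rows (purple) and for marker lists of testis cell types (grey), 1 point per gene, with a black bar at each list's median and a dashed line at the median of all genes tested, 0.51. The purple points reach up to 2.78 with WFDC2 apart at −1.03, the somatic and spermatogonial lists lie mostly between 1 and 3, and the spermatid lists lie below −5.

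Because FPKM are shares of a library, the libraries were also rescaled. With median-of-ratios size factors, which moved the median of all genes from 0.51 to 0.01, 9 of the 11 rows were called higher where 17.7% of all genes were, with a median of 1.98. The CLU copy fell below the fold threshold, at 0.92. When each library's FPKM was divided by the geometric mean of the 12 other Sertoli genes, a scaling chosen after the data were seen, no row was called higher, where 0.691% of all genes were. WFDC2 was called lower at −1.80 (adjusted p = 0.028, limma), where 57.9% of all genes were called lower. This scaling rests on genes whose own log2 (foldchange) ran from 0.69 to 2.87, so that a value of 0 means only the middle of that list.

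Relative to the other Sertoli genes the 11 rows parted into those slightly above and those near or below. GATA6 was at 0.79 (adjusted p = 5.4e-04, limma), BEX2 of the shorter transcript at 0.65 (adjusted p = 3.0e-03, limma), and PTGDS at 0.60 (adjusted p = 9.2e-03, limma). GATA4 was at 0.59 (adjusted p = 3.9e-03, limma) and WT1 at 0.55 (adjusted p = 6.3e-03, limma). These 5 were above 0 past the p threshold but short of the fold threshold. The share of all genes above 0 past the p threshold alone was not counted. In this scaling the 12 other Sertoli genes themselves ran from −1.46 (ESPN) to 0.96 (KITLG). TF at 0.46, the longer BEX2 at 0.23 and SOX9 at 0.16 did not pass the p threshold, nor did CLU at −0.22 and its copy at −0.28, which had thus changed sign. The planned shift of the log2 values by the mean of the same 12 genes placed 8 rows above 0 past the p threshold. Here too the share of all genes was not counted. The 3 added were TF at 0.72 (adjusted p = 0.022, limma), the longer BEX2 at 0.42 (adjusted p = 0.019, limma) and SOX9 at 0.305 (adjusted p = 0.034, limma), while CLU was at 0.07.

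**Figure D4:**
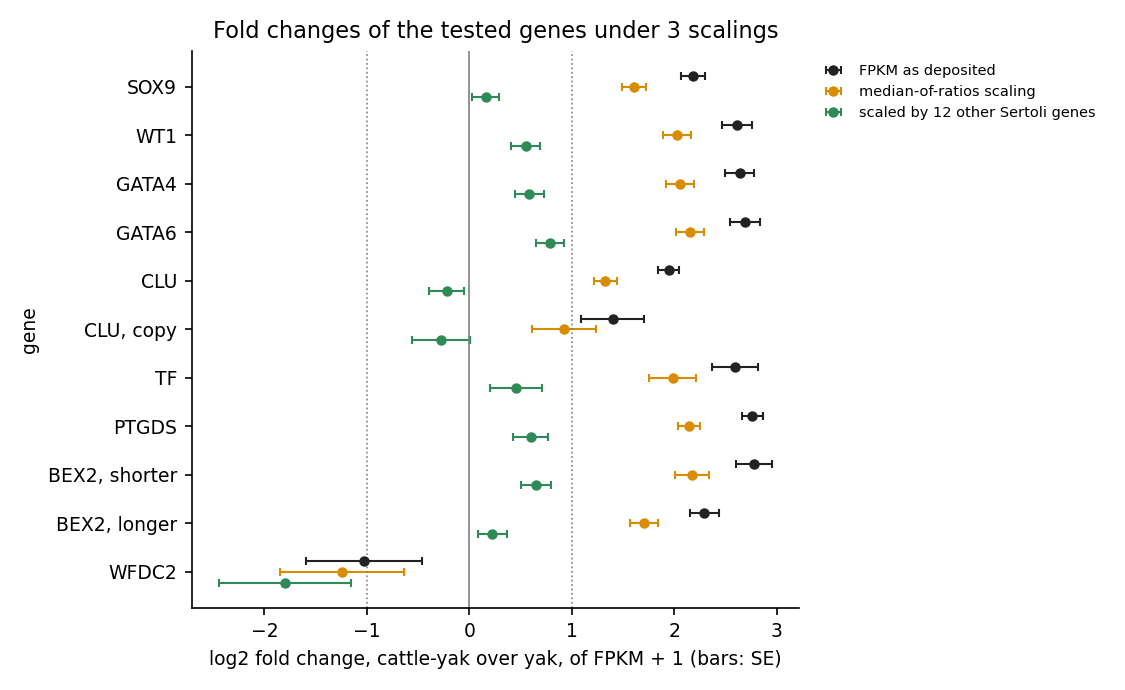
log2 (foldchange) of cattle-yak over yak for the 11 tested rows, with SE bars, on FPKM as deposited (black), after median-of-ratios scaling (orange) and after scaling by the 12 other Sertoli genes (green). Dotted lines mark the fold threshold of 1. The green points lie between −0.28 and 0.79 except WFDC2 at −1.80, and both CLU rows are below 0 only in green.

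Ratios between genes of the same library do not depend on how libraries are scaled where no pseudocount is added, as in 9 of the 11 pairs compared. The difference in mean log2 ratio between groups was tested for 11 pairs by an exact two-sided permutation test, in which 3 against 3 animals cannot go below p = 0.1 (0.157 after adjustment over the 11 pairs), so that none could pass 0.05. Apart from SOX8 to SOX9 and GATA6 to GATA4, the pairs were chosen after values had been seen. PTGDS to CLU showed the widest gap without a pseudocount, with log2 ratios of −0.17, 0.07 and 0.04 in TES5, TES6 and TES7 and of −0.92, −0.79 and −0.80 in Yak8, Yak9 and Yak10. CLU was the more abundant of the pair in every yak library, and they were nearly level in the hybrids (difference 0.82, exact permutation p = 0.1).

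Among the identity factors, the log2 ratio of GATA6 to SOX9 was −0.46 ± 0.14 in the hybrids against −1.17 ± 0.12 in the yaks (SD, n = 3), a difference of 0.71 (exact permutation p = 0.1). GATA4 to SOX9 was 0.69 ± 0.22 against 0.25 ± 0.05 (SD, n = 3), a difference of 0.44 (exact permutation p = 0.1), and neither of these pairs overlapped between groups. WT1 to SOX9 differed by 0.40 with overlapping groups (exact permutation p = 0.2). GATA6 to GATA4, computed with a pseudocount of 1, differed by 0.05 (exact permutation p = 0.4), and with a pseudocount of 0.01 by 0.27 (exact permutation p = 0.1). SOX9 thus lay lower in relation to both GATA factors in every hybrid library than in any yak library.

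For SOX8 to SOX9 the size of the difference rested on the pseudocount, with −1.88 at 1, −1.19 at 0.1 and −0.72 at 0.01 (exact permutation p = 0.1 at each). SOX9 was far above SOX8 in all 6 libraries. Among the products, PTGDS to SOX9 was higher in the hybrids by 0.43 and CLU to SOX9 lower (difference −0.39), both without overlap (exact permutation p = 0.1 for each). With a pseudocount of 1 the difference for CLU to SOX9 was −0.24 (exact permutation p = 0.2). TF to SOX9 overlapped between groups (difference 0.29, exact permutation p = 0.6) and was 0.02 without Yak10. The shorter to the longer BEX2 was 1.72 ± 0.16 in the hybrids against 1.30 ± 0.16 in the yaks (SD, n = 3), a difference of 0.42 without overlap (exact permutation p = 0.1).

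**Figure D5:**
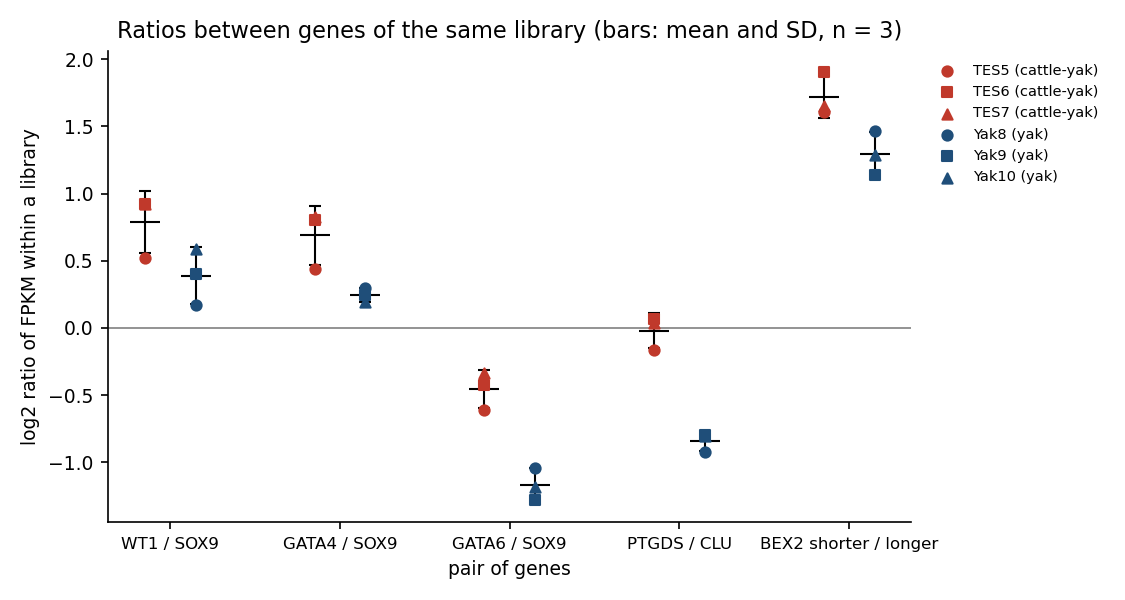
log2 ratio of FPKM between 5 pairs of genes of the same library, with 1 point per library, cattle-yak in red and yak in blue, and black bars for the mean and SD (n = 3). The groups do not overlap for GATA4 to SOX9, GATA6 to SOX9, PTGDS to CLU and the shorter to the longer BEX2, and they overlap for WT1 to SOX9.

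The genes around SOX9 in gonadal determination moved in both directions. Of 13 tested, 7 were called higher and 1 lower, with a median of 1.06, where 33.4% and 20.8% of all genes were. After median-of-ratios scaling 6 were called higher and 3 lower, where 2655 and 4173 of all 15042 genes tested were. CITED2, a cofactor that acts with WT1, rose most (2.42), followed by NR0B1 (2.18), the nuclear receptor DAX1. DMRT1, which maintains the male fate of Sertoli cells and is also made by spermatogonia, was the most abundant at 482 ± 71.6 FPKM against 125 ± 27.1 FPKM (SD, n = 3). SOX10, the third factor of the group of SOX8 and SOX9, was the gene called lower, at −1.48, with 0.663 ± 0.185 FPKM against 3.72 ± 1.12 FPKM (SD, n = 3). Of 4 tested GATA relatives and cofactors, ZFPM1, a GATA cofactor of the FOG family, rose by 2.63 from 5.97 ± 0.72 to 42.6 ± 9.88 FPKM (SD, n = 3). GATA2, chiefly a blood and endothelial factor, rose by 1.03. After median-of-ratios scaling ZFPM1 alone was called higher, and GATA3 was called lower. On FPKM as deposited GATA3 was at −0.83 (adjusted p = 9.2e-03, limma), below the fold threshold, with every hybrid library below every yak library. ZFPM2, the cofactor known to act with GATA4 in the fetal gonad, was at 0.64 (adjusted p = 0.011, limma) and below the fold threshold.

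The ovarian genes that oppose SOX9 were near the limit of detection. None of 6 granulosa genes, among them FOXL2 and the aromatase CYP19A1, passed the filter, and their summed level was 0.518 to 1.55 FPKM in cattle-yak and 0.625 to 2.17 FPKM in yak.

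Of the other genes of prostaglandin D2, none of the 3 tested was called higher, where 33.4% of all genes were. HPGDS, the second enzyme that makes prostaglandin D2, was called lower at −1.51, being at 0 in TES6 and TES7 and at 0.501 FPKM in TES5, against 3.01, 2.57 and 1.45 FPKM in Yak8, Yak9 and Yak10. Its fall rests on low values. The receptor PTGDR was higher in every hybrid library, with 0.622, 1.48 and 0.714 FPKM against at most 0.141 FPKM in the yaks, but stayed below the fold threshold at 0.80 (adjusted p = 5.8e-03, limma) on a scale that understates the change of such low values, and PTGS2, which makes the precursor, was at −0.02.

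Iron handling genes rose with TF in 5 of 8 tested, and none was called lower, with a median of 1.77. Of all genes tested 33.4% were called higher and 20.8% lower. After median-of-ratios scaling the list again had 5 called higher and 0 lower, where 2655 and 4173 of all 15042 genes were. LTF, the secreted iron binder lactoferrin, rose by 3.42 from 6.89 ± 0.58 to 85.1 ± 21.0 FPKM (SD, n = 3). TFRC, the receptor through which cells take up transferrin, rose by 3.0 from 4.47 ± 0.93 to 42.3 ± 1.28 FPKM (SD, n = 3). These were the 2 genes of the list still called higher after scaling by the other Sertoli genes, at 1.37 for LTF (adjusted p = 2.1e-04, limma) and 1.02 for TFRC (adjusted p = 8.1e-05, limma). In the same scaling 2 genes of the list were called lower, where 57.9% of all genes were called lower and 0.691% higher. They were the ferritin light chain FTL at −1.34 (adjusted p = 1.7e-05, limma) and TFR2, a transferrin receptor of liver and blood cells, at −1.82 (adjusted p = 6.0e-05, limma). On FPKM as deposited FTL, whose symbol stands on 2 genes, was higher in every hybrid library. It was at 0.66 there (adjusted p = 1.3e-03, limma), below the fold threshold. FTH1, the ferritin heavy chain, whose symbol stands on 7 genes, was the most abundant at 2825 ± 388 FPKM against 820 ± 78.2 FPKM (SD, n = 3), and TFR2 was at −0.12 on FPKM as deposited.

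Receptors that bind clusterin were divided. LRP8 rose by 2.13, from 7.33 ± 0.94 to 36.1 ± 9.63 FPKM (SD, n = 3), whereas VLDLR was called lower at −2.32, with 1.91 ± 0.40 FPKM against 13.5 ± 0.88 FPKM in yak (SD, n = 3). LRP2, also called megalin, was called lower at −1.59. Its symbol stands on 2 genes, and the more abundant had 0.856 ± 0.583 FPKM against 4.52 ± 1.27 FPKM in yak (SD, n = 3).

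In the family of BEX2, TCEAL8 rose by 2.72, from 21.4 ± 4.46 to 144.8 ± 9.51 FPKM (SD, n = 3), close to the shorter BEX2, and TCEAL1 by 1.07. BEX4 went the other way, at −0.53 (adjusted p = 1.0e-02, limma), below the fold threshold. In the WAP domain family of WFDC2, 3 of 6 tested genes were called higher and 2 lower. The shares of all genes tested were 33.4% and 20.8%. After median-of-ratios scaling 2 were called higher and 2 lower, where 2655 and 4173 of all 15042 genes tested were. EPPIN, a protease inhibitor of Sertoli cells and epididymis that coats sperm, was the most abundant and rose by 2.33, from 102 ± 13.0 to 530.0 ± 151 FPKM (SD, n = 3). SLPI, a leukocyte protease inhibitor, rose by 2.05. WFDC11 was at −2.25, at 0 in TES6 and TES7 with 0.30 FPKM in TES5, and WFDC3 was at −1.77, with 14.1 ± 2.06 FPKM against 50.5 ± 4.79 FPKM (SD, n = 3).

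Other secreted proteins of Sertoli cells were called higher in 8 of 8 tested, where 33.4% of all genes were, with a median of 2.40. Which cells of the tissue made these transcripts was not tested. MGP, an inhibitor of calcification, rose most (2.97), followed by the protease inhibitor CST3 (2.77). TIMP2, an inhibitor of metalloproteinases, was the most abundant at 2298 ± 98.7 FPKM against 467 ± 34.6 FPKM (SD, n = 3). After median-of-ratios scaling 5 of the 8 were called higher, where 17.7% of all genes were. None was after scaling by the other Sertoli genes, where 0.691% of all genes were.

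In the annotation of the deposited table, 11 of the 12 rows carried gene ontology terms, with the extracellular space or region among them for 5 rows and the nucleus for 8.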

How the data were processed

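Total RNA of testis was made into stranded mRNA libraries and sequenced as read pairs on an Illumina HiSeq system. The authors mapped trimmed reads to the yak genome of Lanzhou University with HISAT2 and computed the deposited FPKM values with Cufflinks. Their DESeq analysis was not used here.

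The FPKM were analysed as log2 (FPKM + 1) with limma 3.58.1 (variance trend, two-sided) over genes with a mean of at least 0.5 FPKM. They were also turned back into whole fragments for 17973 genes (those above 0 in 2 or more libraries). A value was accepted only within 0.03 of a whole fragment, so the 100% within this limit follows from the rule. At the depth chosen to give the most whole lengths, 99.37% of 14955 genes had a length within 0.02 of a whole base. In simulated data 98.30% of 17770 genes were recovered exactly. Voom in limma on these fragments was an alternative. A log2 (foldchange) on this scale understates the change of low genes. Where a symbol stood on several genes, the most abundant stood for it in a list. Among the named list genes these were KRT8, CLDN4, FTL, FTH1, LRP2, SLPI and EPPIN. Named list genes were the 2 called higher with the largest and the 2 called lower with the lowest change, and the most abundant; KRT8, KRT18, KRT19, PAX8, AQP9, CLDN4, EPCAM, PTGDR, PTGS2, TFR2, FTL, GATA3, BEX4, ZFPM2, AMH, FSHR, ESPN, FOXL2 and CYP19A1 were added with their values known. The members and lists were chosen with earlier results of these data known. Nothing in the labels pairs the animals. The limma p-values set the difference between groups against the spread of animals within a group, and they cover only these 6 animals. That spread was drawn towards a trend over all genes tested.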

Additional observations from a re-analysis of the deposited data

How the results depend on the processing

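The counts of 10 rows called higher and 0 called lower stayed within 1.5 times, and the median of 2.59 within the spread of the replicates, with pseudocounts of 0.1 and 0.01, no filter, a minimum of 5 FPKM, quantile scaling and voom. Median-of-ratios scaling gave a median of 1.98. Centring on the other Sertoli genes gave 0 higher, 1 lower (WFDC2) and a median of 0.72. Centring on the Leydig and myoid genes gave 0, 1 and 0.45. Dividing by the other Sertoli genes, chosen after seeing the data, gave 0, 1 and 0.46, where 0.691% of all genes were called higher and 57.9% lower. The shares of all genes were not counted for the centrings, so their counts have no such measure beside them. In these 3 scalings, in the same order, the CLU copy changed sign to −0.48, −0.75 and −0.28, and CLU to −0.20 and −0.22 in the last 2. The construction of these scalings removes a shift that somatic genes share. Leaving out each animal in turn kept 10 higher, gave 0 to 1 lower, the 1 being WFDC2 without Yak9, and a median of 2.34 (without Yak10) to 2.58. Of 174 alternative values of single rows, 139 kept their direction and side of the threshold, 26 lost the call, 4 gained it (all WFDC2) and 5 changed sign. The planned ratios kept their sign, SOX8 to SOX9 between −1.97 and −0.72 and GATA6 to GATA4 between 0.0016 and 0.27. No paired analysis was possible because the labels give no numbers that the groups share. Depth limits SOX8 and WFDC2, with 3 to 13 and 3 to 157 fragments per library.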
